A study of Equus caballus with 40 samples.

Results

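Although some, such as type VI, also occur in cartilage, the collagen genes described here are those other than types II, IX, X and XI. They were measured in equine chondrocyte pellets. The rule for them is by name: every probe set whose single platform symbol was COL, a number, A and a number was taken, and COL2A1, COL9A1, COL9A2, COL9A3, COL10A1, COL11A1 and COL11A2 were left out. This gave 35 genes of 16661 with a symbol of their own, each with 1 probe set, while the 7 cartilage collagens stood outside the group. By structure, 8 of the 35 are fibril-forming, 6 belong to type IV, 6 to type VI and its relatives, 6 to the FACIT collagens (fibril-associated, with interrupted triple helices) and their relatives, 2 to the multiplexins and 2 to type VIII. A further 4 are transmembrane collagens and 1, COL26A1, is of another kind.

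Horse chondrocytes were kept as 3D pellets, in which cartilage cells surround themselves with matrix. Pellets of 4 of the 5 treatments were first exposed for 48 h to interleukin-1β (IL-1β; 5 ng/ml, recombinant, equine), an inflammatory signal of diseased joints, and control pellets were kept without it. They were then kept as control, with IL-1β alone, or with IL-1β and either autologous equine serum (AES), a treatment named AES24h, or autologous conditioned serum (ACS), and were harvested 2 h or 48 h later, with 4 arrays in each of the 10 groups. The labels explain neither AES24h nor the serum doses, and they do not say whether replicates came from separate horses or cultures. The p-values therefore rest on the spread among these arrays, part or all of which may be technical. All serum groups also carried IL-1β, so that a serum effect is read against IL-1β alone, and there was no serum group without IL-1β.

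Collagens are trimers of chains wound into a triple helix. Fibril-forming types I, III and V build the tensile fibrils of tendon, skin and scar, type IV builds the network of basement membranes and of the thin matrix next to the cell, type VI forms beaded microfilaments that in cartilage lie around each chondrocyte, and type VIII forms short-chain networks known from the vessel wall and the cornea. Chondrocytes that lose their phenotype in culture are known for a shift from type II towards types I and III. The roles given here are known mainly from human and mouse.

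The values are log2 expression levels after normalisation across arrays, so a difference of 1 is 2-fold. Levels of different probe sets are ordered only to show where a gene reads on these arrays. Such an order is not a ranking of RNA amounts. Array medians ran from 4.35 to 4.59, and arrays of a group correlated with each other at 0.962 to 0.984. A gene whose mean lies below the lowest array median, 4.35, was not shown to be above background. AES arrays 2 and 4 at 48 h had the lowest mean correlation with their group, 0.965 and 0.964 in a range up to 0.983 over all arrays, and high medians of 4.59 and 4.54, so the calls of collagen genes and gene lists that rest on that group are also given without them. Of 11 chondrocyte markers 9 or 10 were above the lowest array median in every group, among them COL2A1, ACAN and SOX9, so the labelled cell type showed its defining markers.

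Among the 35 genes, 21 had a mean over the 40 arrays above 4.35 and 14 did not. The lowest-reading 11 were below it in all 10 groups. COL6A5 had the lowest mean, 2.66, and COL3A1 the highest, 12.74, which lay at percentile 99.9 of all probe sets. COL1A2, COL6A3, COL12A1, COL1A1, COL6A1 and COL5A2 were also above percentile 99 of all probe sets. The group means of 22 genes spanned less than 0.5. Among these 22 are all of the 14 lower genes except COL14A1, and a small span near background says little. Most of the 21 genes above 4.35 spanned more. The group means of 5 genes spanned more than 1, with 1.65 for COL8A1, 1.29 for COL4A1, 1.13 for COL8A2 and 1.11 for COL4A2. The fifth was COL14A1, whose lowest group mean lay below the lowest array median, so that its measured span of 1.34 has no place in this order. These 5 belong to type IV, type VIII and the FACIT collagens, and none is a fibril-forming gene.

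Over 23 comparisons, limma called 18 of 805 tests of these genes at an adjusted p under 0.05, which is 2.24%, beside 1.11% of the tests of all probe sets. At least 1 comparison called 10 of the 35 genes (28.6%), beside 12.9% of all probe sets. The comparisons share groups, and many of the probe sets lie near background. With IL-1β against control, 1 gene was called at 2 h, where 4.52% of all 30559 probe sets were called, and 1 at 48 h against 1.26% of all. A count of 1 of 35 is 2.86%, and a single call does not set these genes apart from either share. The median fold change of the 35 genes was -0.03 at 2 h, beside 0.04 over all probe sets, and 0.09 at 48 h, beside 0.04. Of the 21 genes above the lowest array median, 18 at 2 h and 19 at 48 h had a 95% interval of the IL-1β effect that lay wholly within 2-fold in either direction. Of all probe sets above that median, 81.6% and 85.6% had such an interval. Among the 21 genes the exceptions were COL1A1, COL8A1 and COL8A2 at 2 h and the type VIII pair at 48 h. The 7 cartilage collagens stood beside them with 3 called lower at 2 h and 5 at 48 h. Among these COL2A1 fell by 2.53 at 48 h (adjusted p = 0.00174, limma).

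**Figure D1:**
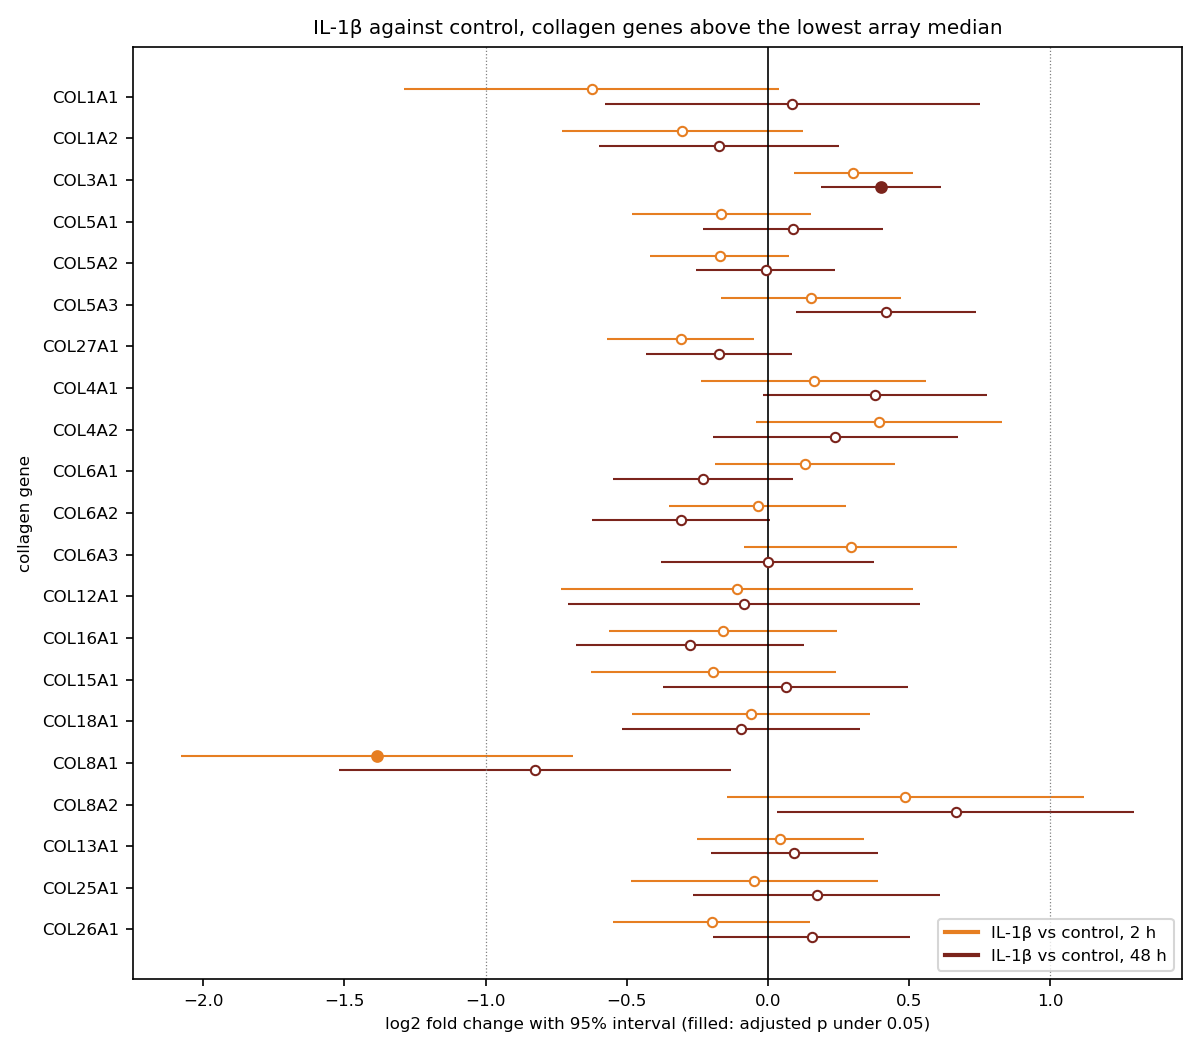
Log2 fold change of IL-1β against control (horizontal axis) with its 95% interval at 2 h and 48 h for the 21 collagen genes above the lowest array median (vertical axis). Filled points passed an adjusted p of 0.05 and dotted lines mark 2-fold. COL8A1 at 2 h (-1.38) and COL3A1 at 48 h (0.40) are the filled points.

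The serum treatments were compared with IL-1β alone at each time, to ask whether serum moved the inflamed pellets. At 2 h no collagen gene of the 35 was called with AES, AES24h or ACS, and 0 had an unadjusted p under 0.05. Over all probe sets 0.0164%, 0.0229% and 0.0262% were called in these comparisons. All 21 genes above the lowest array median had 95% intervals within 2-fold in each of them. The same held for 89.2%, 89.3% and 89.6% of all probe sets above that median, for AES, AES24h and ACS. At 48 h limma called 1 gene with AES, where 0.442% of all probe sets were called, 0 with AES24h against 0.226% and 0 with ACS against 0.262%. An unadjusted p under 0.05 was reached by 5, 6 and 6 genes. The median fold change of the 35 genes was 0.04, -0.09 and -0.11, beside 0.02, -0.02 and -0.02 over all probe sets. The 3 serum groups share the IL-1β arrays, so their values are not independent of each other.

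Against control at 48 h, which sums the effects of IL-1β and serum, 5 genes were called with AES (7.76% of all probe sets), 6 with AES24h (3.54%) and 3 with ACS (3.85%). These counts are 14.3%, 17.1% and 8.57% of the 35 genes. In each case the share was above that of all probe sets, many of which lie near background. Among the upper 60% of probe sets by mean, 14.3%, 6.52% and 6.99% were called with AES, AES24h and ACS. The AES share of the 35 genes was not above that. The counts are small, and their excess was not tested. The 3 comparisons share the 4 control arrays. Without AES arrays 2 and 4 the AES count was 2, and 2.29% of all probe sets were called. Leaving out 1 array moved the share of all probe sets for AES from 7.76% to between 4.1% (without AES array 4) and 11.5% (without AES array 3). The direct comparisons between sera at 48 h called 0 of the 35 genes and 0% of all probe sets. An unadjusted p under 0.05 was reached by 3 of the 35 for AES24h against AES and by 0 in the other pairs.

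**Figure D2:**
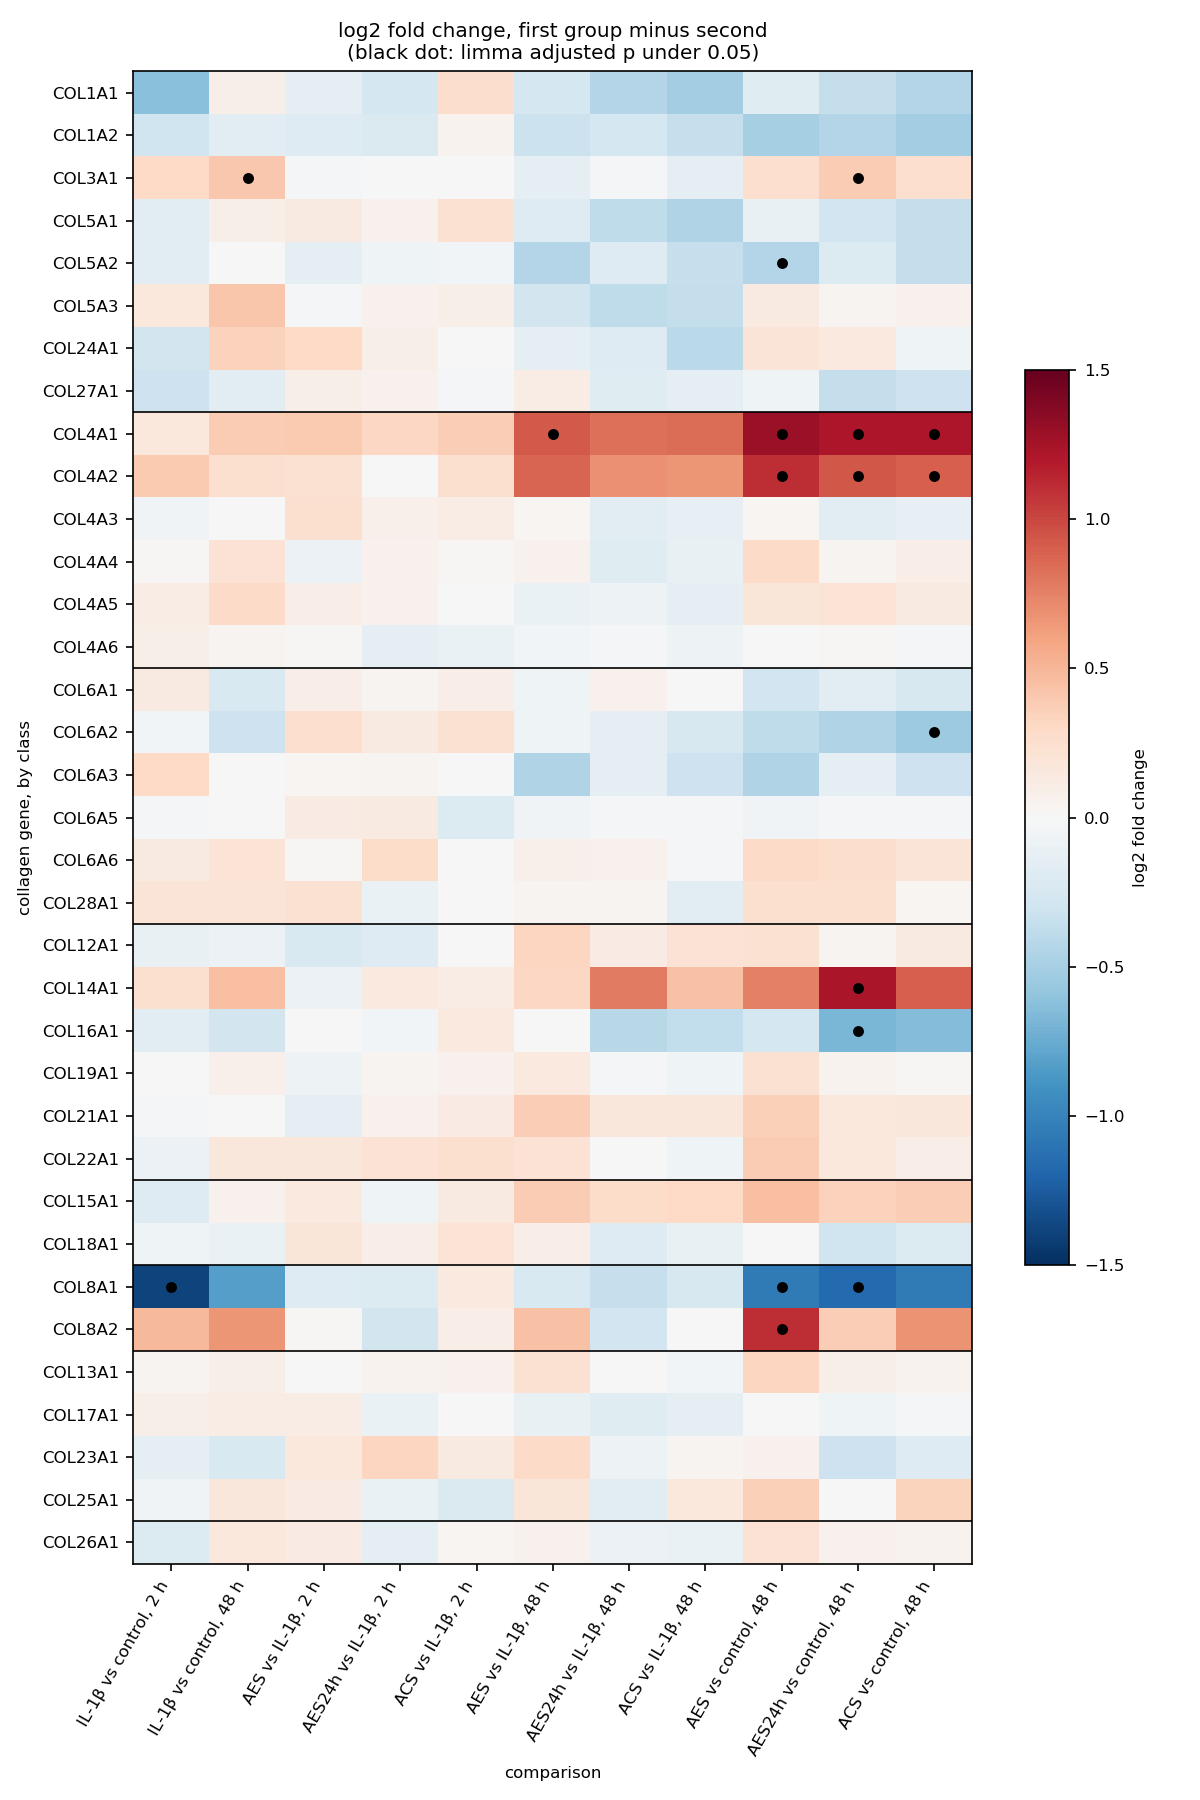
Log2 fold change (colour) of the 35 collagen genes (vertical axis, by class, separated by lines) in 11 comparisons (horizontal axis), with a black dot where limma's adjusted p was under 0.05. COL4A1 and COL4A2 are red in the serum columns at 48 h, up to 1.29, and COL8A1 is blue wherever the second group is control.

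COL4A1 and COL4A2 encode the α1 and α2 chains, which make up the common type IV collagen network. Both were higher with each serum than in control at 48 h. In replicates 1 to 4 of control at 48 h COL4A1 read 6.40, 6.44, 6.77 and 6.47, and in IL-1β alone 6.87, 7.05, 6.69 and 6.98. With AES it read 8.22, 7.52, 7.76 and 7.75. With AES24h the values were 7.50, 7.97, 7.49 and 7.95, and with ACS 7.54, 7.75, 7.62 and 8.02. Every serum array at 48 h was above every control and IL-1β array, and control and IL-1β overlapped slightly. Against control COL4A1 rose by 1.29 with AES (95% interval 0.90 to 1.69, adjusted p = 2.11e-05, limma), by 1.21 with AES24h (0.81 to 1.61, adjusted p = 7.95e-05) and by 1.21 with ACS (0.82 to 1.61, adjusted p = 6.86e-05). These are 2.45-, 2.31- and 2.32-fold, and leaving out any 1 array ended none of the 3 calls. The AES difference was 1.47 without AES arrays 2 and 4 (adjusted p = 0.00017).

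Against IL-1β alone COL4A1 was 0.92 higher with AES (0.52 to 1.31, adjusted p = 0.0231, limma), which is 1.89-fold. With AES24h the difference was 0.83 (0.43 to 1.23, adjusted p = 0.0561) and with ACS 0.83 (0.44 to 1.23, adjusted p = 0.0528), both outside the threshold. The groups did not overlap in any of these comparisons, as was true of 4.82%, 4.65% and 4.57% of all probe sets. For comparisons with control or between times such shares are not given here. A lack of overlap there only describes the arrays. The sera did not differ in COL4A1 beyond their spread: AES24h minus AES was -0.09 (-0.48 to 0.31) and ACS minus AES -0.08 (-0.48 to 0.32). The AES call against IL-1β was lost without AES arrays 2 and 4 (1.09, adjusted p = 0.0745). It was also lost without any 1 of IL-1β arrays 1, 2 or 3 or AES arrays 1 or 4, with adjusted p from 0.0591 to 0.0825.

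COL4A2 stood in replicates 1 to 4 of control at 48 h at 7.34, 7.11, 7.04 and 6.88, and in IL-1β at 7.69, 7.11, 7.06 and 7.47. The AES arrays held 8.24, 8.17, 7.89 and 8.50. AES24h gave 7.99, 8.13, 7.53 and 8.43 and ACS 7.91, 8.14, 7.62 and 8.31. All serum arrays were above all control arrays, while the third AES24h and ACS arrays fell below the highest IL-1β array. Relative to control the gene rose by 1.11 with AES (adjusted p = 0.000637, limma), 0.93 with AES24h (adjusted p = 0.00675) and 0.90 with ACS (adjusted p = 0.00822). Relative to IL-1β the differences of 0.87, 0.69 and 0.66 did not pass (adjusted p = 0.0552, 0.280 and 0.276). The AES difference from control was 0.97 without AES arrays 2 and 4 (adjusted p = 0.0394). Leaving out AES24h array 4 (adjusted p = 0.0515) or ACS array 4 (0.0509) ended the AES24h and the ACS call against control.

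At 2 h the type IV pair was not called in any of the 4 comparisons made. COL4A1 had means of 6.89 ± 0.27 (SD, n = 4) in control, 7.06 ± 0.37 in IL-1β, 7.44 ± 0.37 with AES, 7.37 ± 0.37 with AES24h and 7.42 ± 0.24 with ACS. All of these groups overlapped their neighbours in that order, and the serum differences from IL-1β of 0.39, 0.31 and 0.37 did not pass (adjusted p = 0.693, 0.957 and 0.969, limma). The change of the serum effect from 2 h to 48 h was 0.53, 0.52 and 0.47 for AES, AES24h and ACS. None of these passed (adjusted p = 0.836, 0.832 and 0.759), so it was not shown that the serum effect on COL4A1 differed between the times. The remaining type IV chains, COL4A3, COL4A4, COL4A5 and COL4A6, which form the networks of kidney, lung and some epithelia, were below 4.35 in all 10 groups and were not called in any comparison.

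Type IV collagen is also made by endothelial and mural cells, whose markers were therefore read in the same arrays. All 8 endothelial markers were below the lowest array median in 9 groups, and 7 of 8 in AES at 48 h, where ESAM was the exception. The mean over the endothelial list was 3.01 to 3.07 on the control arrays at 48 h, 3.10 to 3.32 with IL-1β, 3.06 to 3.52 with AES, 3.02 to 3.16 with AES24h and 3.01 to 3.23 with ACS. No endothelial marker was called against control or IL-1β. Of 8 mural and smooth muscle markers, CSPG4 was called lower with IL-1β and with each serum against control, and none was called higher in these comparisons. Of all probe sets, 4.52% and 1.26% were called with IL-1β at 2 h and 48 h. With AES, AES24h and ACS against control at 48 h the shares were 7.76%, 3.54% and 3.85%. Their median difference from control at 48 h was 0.28 with AES, 0.21 with AES24h and -0.01 with ACS, with 6, 6 and 4 of 8 above 0. PDGFRB, a receptor of mural cells and fibroblasts, was called higher at 48 h than at 2 h with each serum. Between these times 1.65%, 1.12% and 0.916% of all probe sets were called with AES, AES24h and ACS. Against control it stood 0.36, 0.47 and 0.51 higher with AES, AES24h and ACS, none past the test (adjusted p = 0.195, 0.160 and 0.0969, limma). The mean over the mural list at 48 h was 5.70 to 5.88 on control arrays, 5.50 to 5.73 with IL-1β, 5.50 to 6.02 with AES, 5.81 to 5.90 with AES24h and 5.54 to 5.74 with ACS. The part of these markers in the type IV result was not tested. In bulk RNA, fewer cells of a kind and less RNA per cell cannot be told apart.

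**Figure D3:**
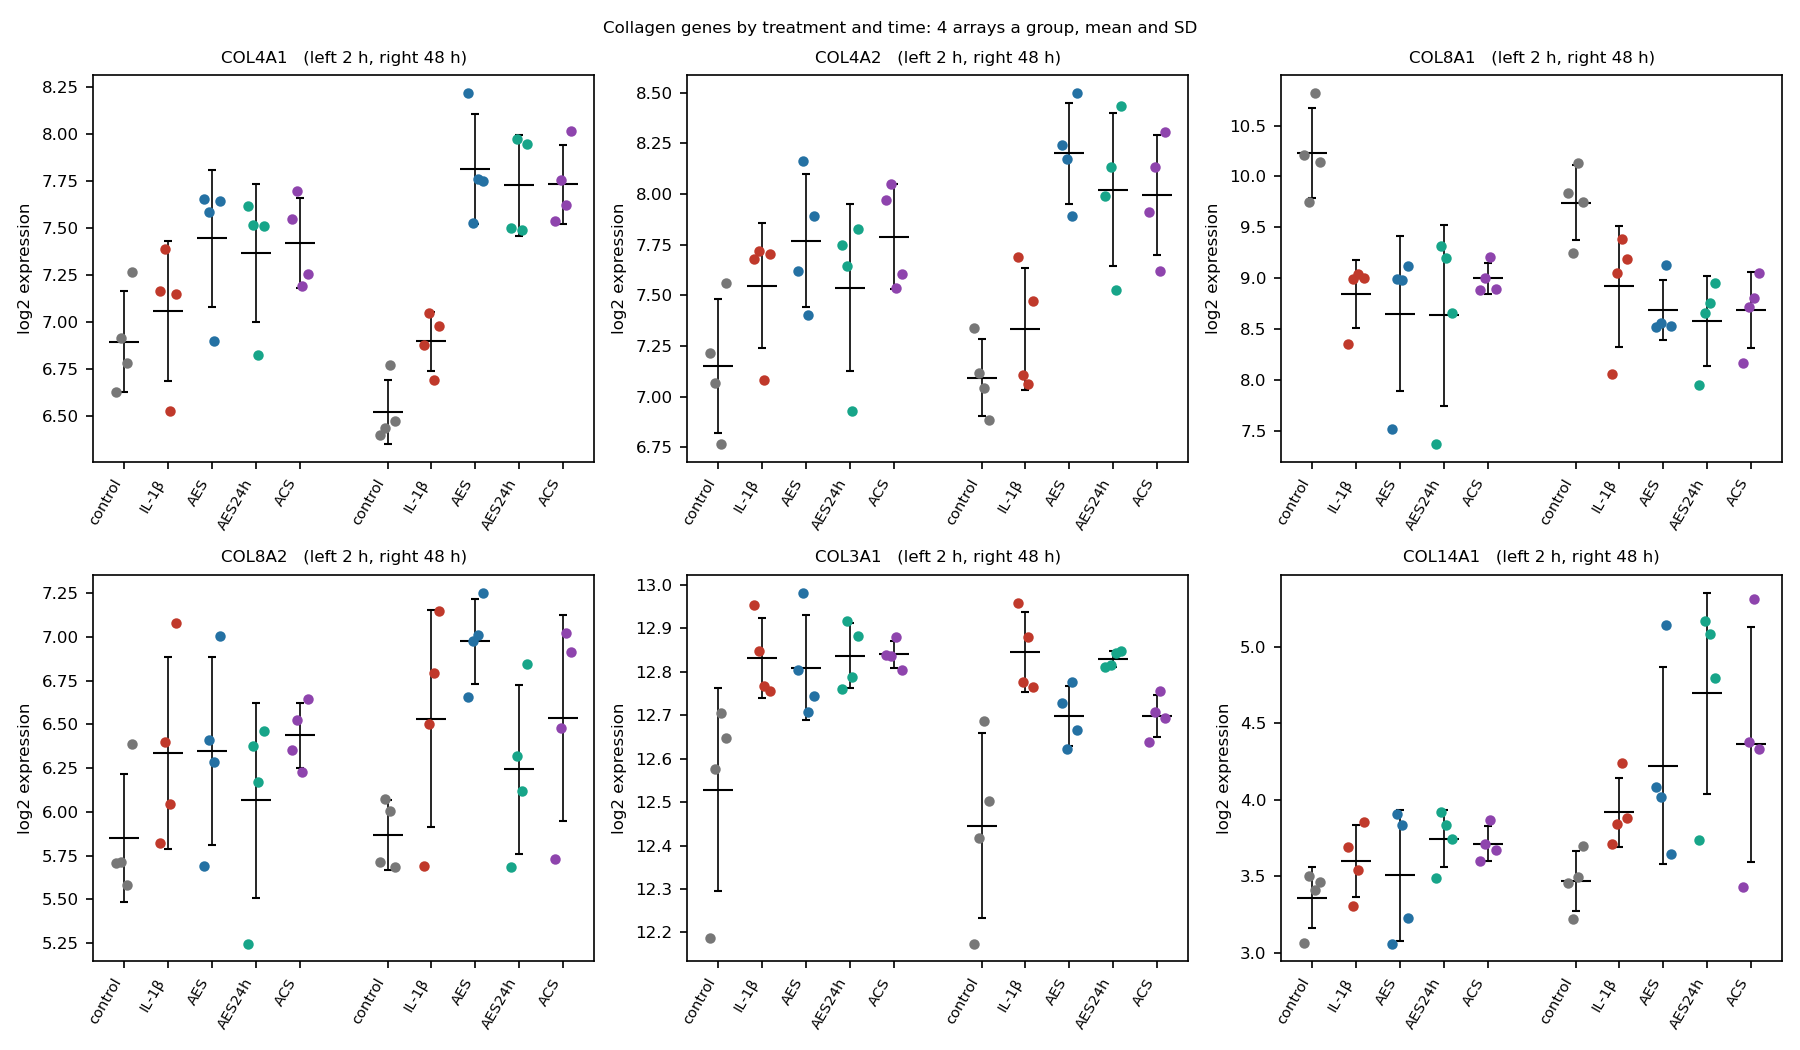
Log2 expression (vertical axis) of COL4A1, COL4A2, COL8A1, COL8A2, COL3A1 and COL14A1 on each array, by treatment (horizontal axis) and time, with bars for mean and SD of 4 arrays. In the COL4A1 panel all serum arrays at 48 h, from 7.49 up, lie above the control arrays, which end at 6.77.

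COL8A1 and COL8A2 encode the 2 chains of type VIII collagen, and in these pellets they did not move together. Of the 35 genes COL8A1 had the largest IL-1β difference at each time. At 2 h it read 10.21, 9.75, 10.82 and 10.14 on control arrays 1 to 4, and 8.35, 9.0, 9.04 and 9.0 with IL-1β. All IL-1β arrays lay below all control arrays. The gene fell by 1.38 (95% interval -2.08 to -0.69, adjusted p = 0.0103, limma), which is 2.61-fold lower. Without IL-1β array 1 the adjusted p was 0.0517 and without control array 3 it was 0.0644.

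At 48 h the control arrays of COL8A1 held 9.84, 9.25, 10.14 and 9.75 and the IL-1β arrays 8.05, 9.05, 9.38 and 9.19, so that the groups overlapped by 1 array. The difference of -0.82 did not pass (-1.52 to -0.13, adjusted p = 0.374, limma). The change of the IL-1β effect between times was 0.56 (-0.42 to 1.54, adjusted p = 0.999), so a difference between times was not shown. With AES the arrays at 48 h read 8.52, 8.56, 9.13 and 8.53, with AES24h 7.94, 8.66, 8.76 and 8.95, and with ACS 8.17, 8.72, 8.80 and 9.05. Every serum array was below every control array and within or near the range of IL-1β alone. Against control the differences were -1.06 with AES (adjusted p = 0.0499), -1.17 with AES24h (adjusted p = 0.0476) and -1.06 with ACS (adjusted p = 0.0819), so that similar sizes fell on either side of the threshold. Against IL-1β they were -0.23, -0.34 and -0.24, none past the test.

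Most single arrays decided the calls of COL8A1 against control at 48 h. Leaving out 1 array ended the AES call in 6 of 8 cases, with adjusted p up to 0.134 without AES array 4, and the AES24h call in 7 of 8, up to 0.217 without AES24h array 1. Without AES arrays 2 and 4 the AES difference was -0.92 (adjusted p = 0.418). The summed level of the chondrocyte markers moved in the same direction as COL8A1. Its list mean was 8.63 to 8.97 on control arrays and 7.61 to 7.92 with IL-1β at 2 h, and 8.25 to 9.34 and 7.38 to 7.86 at 48 h. With AES, AES24h and ACS at 48 h it was 6.82 to 7.83, 6.93 to 7.70 and 6.94 to 7.70. Of the 11 markers, 9, 8 and 8 were called lower than control, beside 7.76%, 3.54% and 3.85% of all probe sets called. The AES count includes MATN3, whose means of 3.09 with AES and 3.75 in control were both below 4.35. Against IL-1β at 48 h ACAN, HAPLN1 and COL11A1 were called lower with AES, and COL11A1 with AES24h and with ACS. The shares of all probe sets called there were 0.442%, 0.226% and 0.262%. With AES arrays 2 and 4 left out, 8 of the 11 were called lower with AES than control and 0 lower than IL-1β. Of all probe sets, 2.29% and 0.0458% were then called. The part of this shift in the COL8A1 result was not tested.

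COL8A2 pointed the other way. Control arrays 1 to 4 at 48 h held 5.71, 6.07, 6.0 and 5.68, IL-1β 5.69, 6.50, 6.80 and 7.15, and AES 6.66, 6.98, 7.01 and 7.25. AES24h gave 5.69, 6.32, 6.12 and 6.85 and ACS 5.73, 6.48, 7.02 and 6.91. In the IL-1β, AES24h and ACS groups array 1 lay in the control range and the other 3 above it, whereas all AES arrays were above control. AES exceeded control by 1.11 (0.47 to 1.74, adjusted p = 0.0221, limma), whereas the differences of IL-1β (0.67, adjusted p = 0.472), AES24h (0.37, adjusted p = 0.805) and ACS (0.67, adjusted p = 0.349) did not pass. AES was not shown to differ from the other sera, with AES24h minus AES at -0.73 (adjusted p = 0.368). The AES call was lost without AES arrays 2 and 4 (0.97, adjusted p = 0.275), and without any 1 of control arrays 1 or 4 or AES arrays 2 or 4, with adjusted p from 0.0527 to 0.0873.

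Among the fibril-forming genes COL3A1, the chain of type III collagen, was the single gene called with IL-1β at 48 h. On control arrays 1 to 4 at 48 h it read 12.17, 12.42, 12.69 and 12.50 and with IL-1β 12.96, 12.78, 12.88 and 12.76. All IL-1β arrays were above all control arrays, and the first control array was the lowest. The rise was 0.40 (0.19 to 0.61, adjusted p = 0.0413, limma), or 1.32-fold. At 2 h the control arrays held 12.19, 12.58, 12.70 and 12.65 and the IL-1β arrays 12.95, 12.85, 12.77 and 12.76, again with no overlap. That difference of 0.30 did not pass (adjusted p = 0.102).

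The call of COL3A1 at 48 h was lost without any 1 of 7 of its 8 arrays, and without control array 1 the difference was 0.31 (adjusted p = 0.273). With AES24h the arrays at 48 h lay between 12.81 and 12.85 and COL3A1 was called higher than control (0.38, adjusted p = 0.0263, limma). This call too was lost without control array 1 (0.29, adjusted p = 0.195) and in 5 more of its 8 such cases. The AES and ACS differences from control were 0.25 and 0.25 (adjusted p = 0.135 and 0.242). Against IL-1β the sera gave -0.15, -0.02 and -0.15, with 95% intervals inside -0.36 to 0.20.

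COL1A1 and COL1A2, the chains of type I collagen, were high in every group and were called in no comparison of the main setting. COL1A1 read 10.63, 11.53, 11.73 and 11.36 on control arrays 1 to 4 at 2 h and 10.45, 10.95, 10.33 and 11.04 with IL-1β. At 48 h it read 10.97, 10.55, 11.74 and 11.19 in control and 10.89, 11.22, 11.49 and 11.18 with IL-1β. The groups overlapped at both times. The IL-1β effect was -0.62 at 2 h (-1.29 to 0.04, adjusted p = 0.405, limma) and 0.09 at 48 h (-0.58 to 0.75, adjusted p = 0.961). At these widths a 2-fold fall at 2 h lies inside the interval.

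With serum COL1A1 at 48 h stood at 10.51, 10.86, 11.36 and 11.00 for AES, 9.97, 11.15, 10.99 and 10.90 for AES24h, and 9.56, 10.98, 11.08 and 11.07 for ACS. Array 1 was the lowest of each of these groups. The differences from IL-1β of -0.26, -0.44 and -0.52 did not pass (adjusted p = 0.843, 0.917 and 0.788, limma). COL1A2 spread less, with 12.24 to 12.49 in control at 48 h, 12.06 to 12.34 with IL-1β, 11.61 to 12.19 with AES, 11.35 to 12.19 with AES24h and 11.14 to 12.14 with ACS. At 48 h COL1A2 was lower with the sera than in control by 0.49, 0.44 and 0.52 on average, but none passed (adjusted p = 0.148, 0.409 and 0.231, limma).

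COL5A2, a chain of the type V collagen that limits fibril width, was lower with AES at 48 h. Its control arrays 1 to 4 read 10.75, 10.65, 10.78 and 10.57, its IL-1β arrays 10.86, 10.66, 10.72 and 10.49 and its AES arrays 10.32, 10.20, 10.42 and 10.04. AES24h gave 10.53, 10.64, 10.37 and 10.40 and ACS 10.38, 10.38, 10.24 and 10.34. All AES and ACS arrays were below all control and IL-1β arrays. Of all probe sets, 4.82% had no overlap of AES with IL-1β and 4.57% none of ACS with IL-1β. COL5A2 fell by 0.44 with AES against control (-0.69 to -0.20, adjusted p = 0.0181, limma), or 1.36-fold. The AES difference from IL-1β was also -0.44 but did not pass (adjusted p = 0.0970), nor did the ACS differences of -0.35 from control and -0.35 from IL-1β (adjusted p = 0.111 and 0.345).

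The AES call of COL5A2 was lost without AES arrays 2 and 4 (-0.32, adjusted p = 0.403), and without control array 1 (0.0598), AES array 2 (0.0527) or AES array 4 (0.0999). Its partner COL5A1 had group means from 8.29 with ACS at 48 h to 8.76 with ACS at 2 h and was called in no comparison. COL5A3 and COL27A1, a fibrillar collagen of growing cartilage, were above 4.35 in every group and COL24A1 below it in every group, all with no call. As a class, the fibril-forming genes had a median fold change of -0.22 and 0.09 with IL-1β at 2 h and 48 h. Against IL-1β at 48 h the class median was -0.23 with AES, -0.23 with AES24h and -0.35 with ACS, beside 0.02, -0.02 and -0.02 over all probe sets, with no call among its 8 genes.

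**Figure D4:**
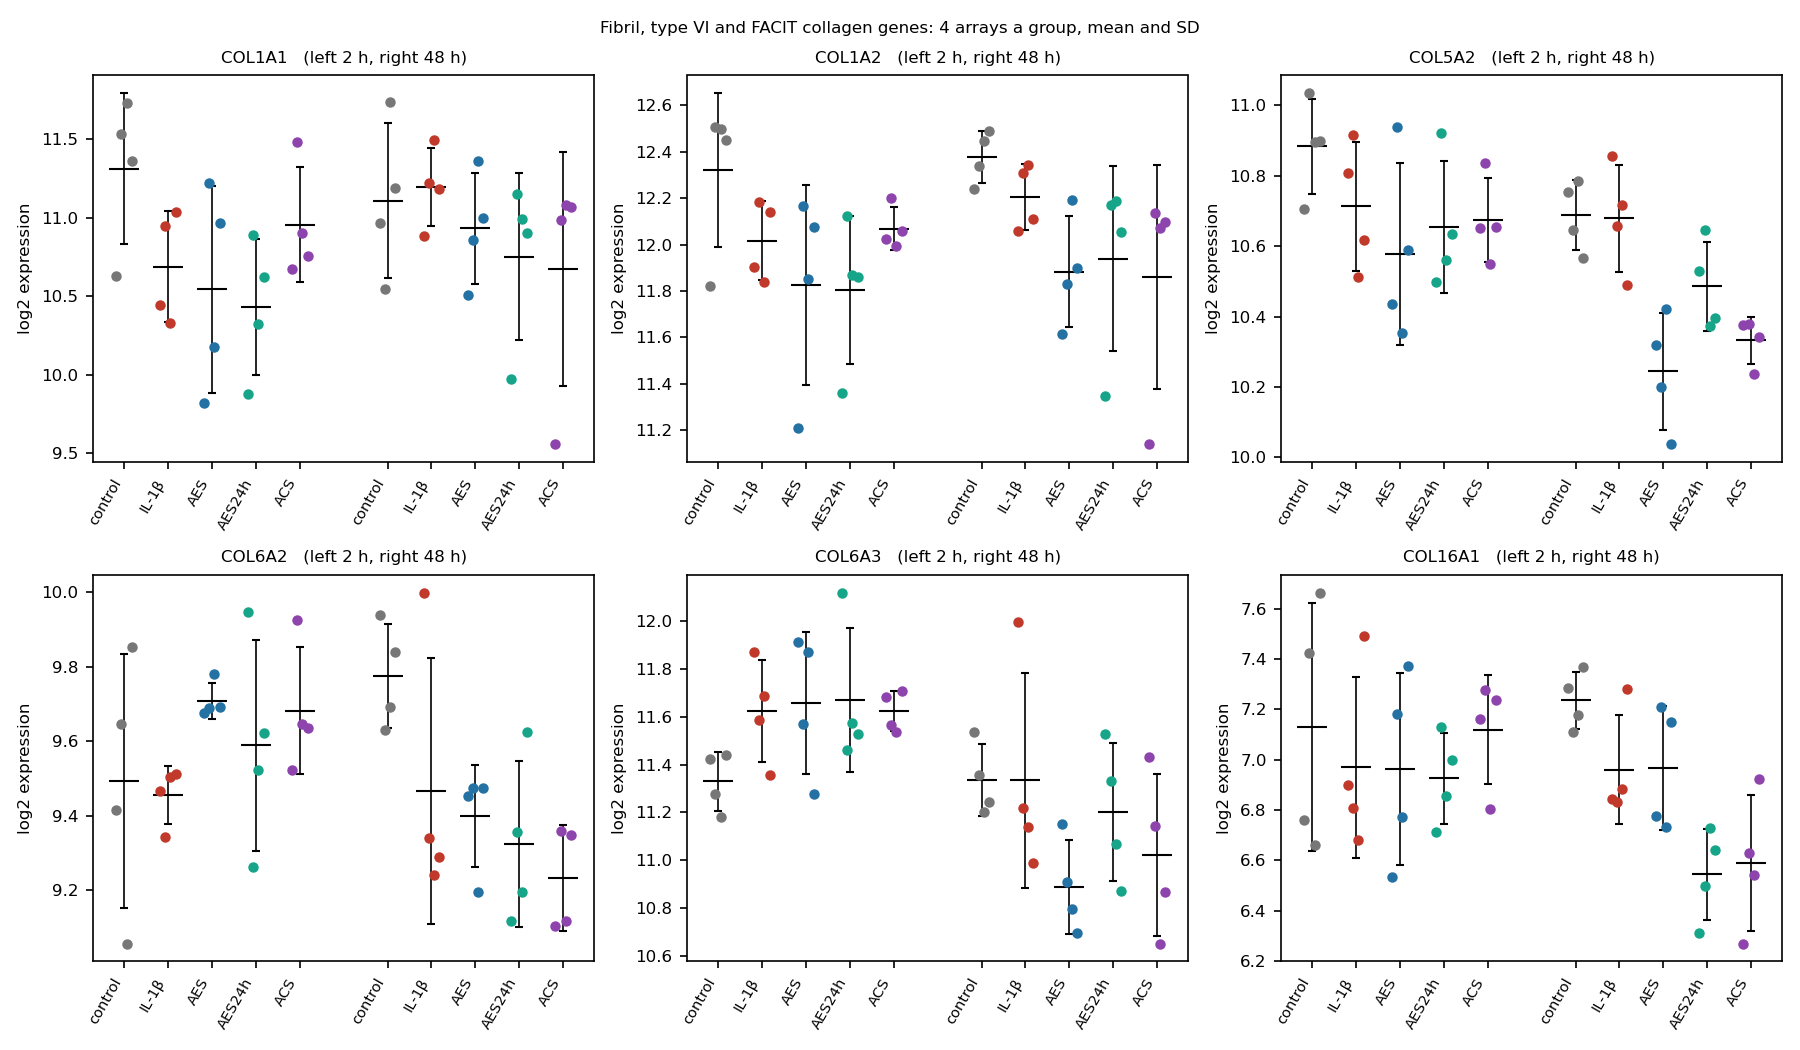
Log2 expression (vertical axis) of COL1A1, COL1A2, COL5A2, COL6A2, COL6A3 and COL16A1 on each array, by treatment (horizontal axis) and time, with bars for mean and SD of 4 arrays. COL5A2 with AES at 48 h lies at 10.04 to 10.42, below the control arrays at 10.57 to 10.78.

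COL6A1, COL6A2 and COL6A3 supply the 3 chains of the common type VI microfilament, the collagen of the pericellular matrix of chondrocytes. None was called with IL-1β or against IL-1β. COL6A2 read 9.94, 9.63, 9.69 and 9.84 on control arrays 1 to 4 at 48 h, 9.998, 9.34, 9.24 and 9.29 with IL-1β, and 9.10, 9.36, 9.12 and 9.35 with ACS. The ACS arrays were all below the control arrays, and the IL-1β group held 1 high array, its first. COL6A2 was lower with ACS than in control by 0.54 on average (-0.86 to -0.23, adjusted p = 0.0378, limma). The AES and AES24h differences of -0.38 and -0.45 did not pass (adjusted p = 0.136 and 0.127), and the ACS call was lost without control array 1 or 4 or ACS array 1, 3 or 4, with adjusted p from 0.0532 to 0.147.

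COL6A3 was the only one of the 35 genes called between times. With AES it read 11.91, 11.57, 11.87 and 11.28 at 2 h and 11.15, 10.91, 10.80 and 10.70 at 48 h, with no overlap. It fell by 0.77 (-1.15 to -0.39, adjusted p = 0.0243, limma), where 1.65% of all probe sets were called. The corresponding differences were 0.01 in control, -0.29 with IL-1β, -0.47 with AES24h and -0.60 with ACS, none past the test. The change of the AES effect itself between times was -0.48 and did not pass (adjusted p = 0.839). Without AES arrays 2 and 4 the fall was 0.68 (adjusted p = 0.248), and leaving out AES array 1, 2 or 3 at 2 h or 2 or 4 at 48 h ended the call, with adjusted p from 0.0517 to 0.0967.

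COL6A1 spanned only 0.29 between its lowest group mean, 10.66 with AES at 48 h, and its highest, 10.96 in control at 48 h. Its IL-1β effects were 0.13 at 2 h (adjusted p = 0.826, limma) and -0.23 at 48 h (adjusted p = 0.682). The related COL6A5, COL6A6 and COL28A1 were below 4.35 in all 10 groups and were not called. Between times, 0 of the 35 genes were called in control (0.00327% of all probe sets), IL-1β (0.00654%), AES24h (1.12%) and ACS (0.916%), with 0, 1, 4 and 6 at an unadjusted p under 0.05. None was called for a change between times of the IL-1β effect (0.00327%), the AES effect (0.00327%), the AES24h effect (0.00654%) or the ACS effect (0.00654%), with 1, 3, 1 and 3 at an unadjusted p under 0.05.

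COL14A1, COL12A1 and COL16A1 belong to the collagens that sit on fibril surfaces. COL14A1 was low in most groups: its mean was below 4.35 in 8 of 10. At 48 h its control arrays 1 to 4 read 3.46, 3.22, 3.50 and 3.70 and its IL-1β arrays 3.71, 3.84, 4.24 and 3.88. AES gave 4.08, 4.02, 5.14 and 3.64, AES24h 3.73, 5.17, 5.08 and 4.80, and ACS 3.43, 4.38, 5.31 and 4.33. Serum arrays were spread over more than 1 unit, and single arrays (array 4 of AES, 1 of AES24h and 1 of ACS) stayed near control. The measured means were 4.70 with AES24h and 3.47 in control. Since the control level was not shown to be above background, the difference is only a bound: with the lowest array median as the floor, AES24h was at least 1.27-fold higher (adjusted p = 0.00960, limma). The AES and ACS differences did not pass (adjusted p = 0.111 and 0.0921), and the AES24h call was lost without AES24h array 2 (0.0538) or 3 (0.0522).

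COL16A1 was lower with AES24h than in control at 48 h. It read 7.29, 7.11, 7.18 and 7.37 on control arrays 1 to 4, 6.84, 6.83, 6.88 and 7.28 with IL-1β, 6.31, 6.50, 6.73 and 6.64 with AES24h and 6.27, 6.63, 6.54 and 6.92 with ACS. The AES24h and ACS arrays were all below control, and AES24h also below IL-1β. Of all probe sets, 4.65% had no overlap of AES24h with IL-1β. The gene fell by 0.69 with AES24h (-1.10 to -0.29, adjusted p = 0.0422, limma), and the ACS difference of -0.65 had an adjusted p of 0.0630. AES stood 0.27 below control (adjusted p = 0.437). The AES24h call was lost without any 1 of its 8 arrays, with adjusted p from 0.0520 to 0.155.

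COL12A1 was high throughout, with group means from 10.73 with AES at 2 h to 11.32 with AES at 48 h. It was called in no comparison, and its pooled SD of 0.46 was among the larger of the group. COL19A1 and COL21A1 were below 4.35 in all 10 groups and COL22A1 in 9, with no call. The multiplexins COL15A1 and COL18A1, of which the latter releases endostatin, had group means of 7.59 to 8.12 and 4.51 to 4.81. Against control at 48 h COL15A1 stood higher by 0.45, 0.34 and 0.37 with AES, AES24h and ACS, none past the test. Of the transmembrane collagens, COL13A1 lay at 5.30 to 5.70, COL25A1 at 4.34 to 4.79, COL23A1 at 3.96 to 4.44 and COL17A1, a hemidesmosome collagen of epithelia, at 3.66 to 3.87. COL26A1 had group means of 5.12 to 5.47, and no gene of these last groups was called.

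**Figure D5:**
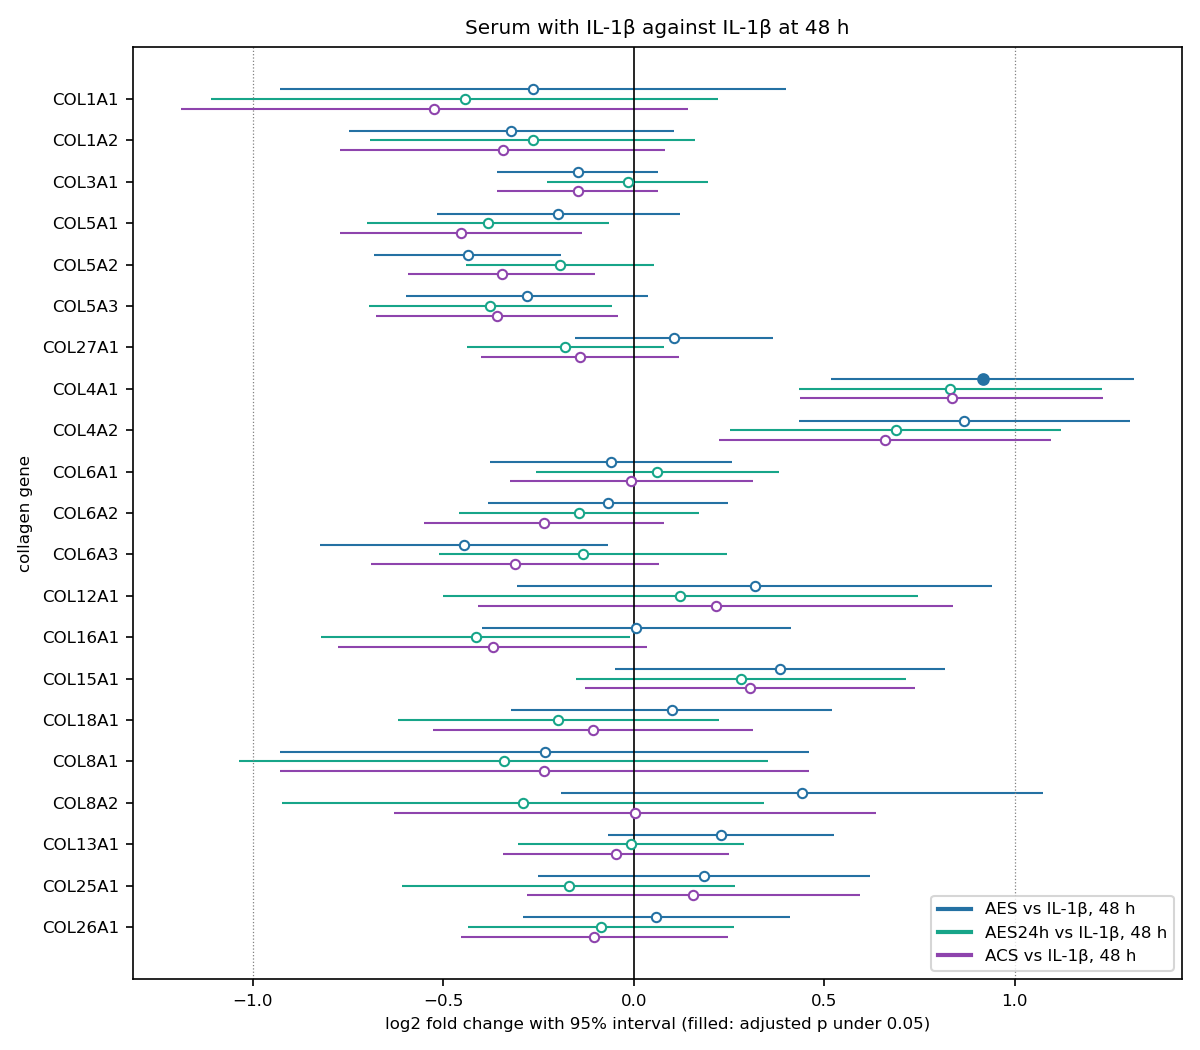
Log2 fold change (horizontal axis) of each serum with IL-1β against IL-1β alone at 48 h, with 95% intervals, for the 21 collagen genes above the lowest array median (vertical axis). COL4A1 and COL4A2 lie to the right of 0 in all 3 comparisons (0.66 to 0.92), and the filled point is COL4A1 with AES.

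Collagen chains need a set of enzymes and chaperones in the endoplasmic reticulum, and propeptide cutting and cross-linking outside the cell. Of 32 measured genes of this collagen synthesis list, 1 was called higher and 14 lower with IL-1β at 2 h, and 1 higher and 5 lower at 48 h. These are to be read beside the 4.52% and 1.26% of all probe sets called at these times. The median of the list was -0.56 at 2 h, when that of the 35 collagen genes was -0.03. SERPINH1, the collagen chaperone HSP47, fell by 0.92 at 2 h (adjusted p = 3.48e-05, limma). P4HA2, a subunit of the prolyl hydroxylase, fell by 0.58 (adjusted p = 0.0122), and PLOD1, a lysyl hydroxylase, by 0.74 (adjusted p = 0.0160). BMP1, which cuts off the C-propeptide, rose by 0.60 (adjusted p = 0.00446).

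With serum at 48 h the synthesis list was called 3 higher and 16 lower for AES, 2 and 13 for AES24h and 2 and 14 for ACS against control, beside 7.76%, 3.54% and 3.85% of all probe sets. The AES counts were 1 higher and 11 lower without AES arrays 2 and 4. Against IL-1β alone 3, 1 and 1 genes were called lower and 0 higher, beside 0.442%, 0.226% and 0.262% of all probe sets, and the AES count was 1 without those arrays. COLGALT2, which adds galactose to collagen, fell in all 3 (log2 differences -2.22, -2.11 and -2.18, adjusted p = 0.000296, 0.000707 and 0.000609, limma), and without AES arrays 2 and 4 the AES difference was -2.33 (adjusted p = 0.0128). PLOD2, the telopeptide lysyl hydroxylase, was lower than control by 0.85, 0.51 and 0.64 with AES, AES24h and ACS (adjusted p = 4.55e-05, 0.0218 and 0.00273). For PLOD2 the AES difference was -0.68 without AES arrays 2 and 4 (adjusted p = 0.0136). COL4A1 and COL4A2 were called higher than control in the same 3 serum groups.

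On the side of breakdown, 3 of 9 collagen-cleaving proteases were called higher with IL-1β at each time and 1, MMP16, lower, beside 4.52% and 1.26% of all probe sets. MMP1, an interstitial collagenase, had a control mean of 2.95 at 2 h, not shown to be above background, and 11.41 with IL-1β, at least 134-fold higher with the lowest array median as the floor (adjusted p = 5.42e-15, limma). MMP13, the main cartilage collagenase, rose by 5.24 (adjusted p = 8.53e-09). MMP2, a gelatinase that also cleaves type IV collagen, rose by 2.00 (adjusted p = 8.46e-09). MMP14, a membrane-bound collagenase, was 0.85 higher with AES24h than with IL-1β alone at 48 h (adjusted p = 0.0178) and 0.78 higher with ACS (adjusted p = 0.0355). The AES difference of 0.62 did not pass (adjusted p = 0.0980).

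Of 10 collagen receptors 1 was called with IL-1β at each time, beside 4.52% and 1.26% of all probe sets. ITGA10, the chondrocyte integrin chain for type II collagen, fell by 1.38 at 2 h and 1.66 at 48 h (adjusted p = 0.00107 and 0.000252, limma). DDR2, a receptor tyrosine kinase for fibrillar collagen, differed by 0.37 and 0.03 and was not called. Transforming growth factor β is a known inducer of matrix collagens, and of 13 genes on its side 1 was called higher and 3 lower with IL-1β at 2 h, and 0 and 2 at 48 h, beside the same shares. TGFBR1 rose by 0.65 at 2 h (adjusted p = 0.00191), and CCN2, a matricellular target of the pathway, fell by 0.67 (adjusted p = 0.0305). Against IL-1β alone at 48 h, none of the 13 was called with any serum by limma, while 5, 2 and 4 had an unadjusted p under 0.05 with AES, AES24h and ACS.

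Markers of other cells that could be in the pellets were read in the same way. Of 7 synovial fibroblast markers UGDH was called lower with IL-1β at both times and CD55 at 48 h. Of all probe sets, 4.52% were called at 2 h and 1.26% at 48 h. CD55 had means of 3.65 in control and 2.95 with IL-1β at 48 h, both below 4.35. The list mean was 5.25 to 5.57 on control arrays at 48 h and 4.90 to 5.26 with IL-1β. CD248, THY1, PDGFRA and UGDH were above 4.35 in every group, and the other 3 were below it in every group. Of 5 bone markers IBSP was called higher than control at 48 h with AES24h (2.47, adjusted p = 0.0220, limma) and ACS (2.45, adjusted p = 0.0219). The shares of all probe sets called there were 3.54% and 3.85%. Of 7 leukocyte markers CD68 was called higher with AES against control at 48 h (0.56, adjusted p = 0.0397, limma), beside 7.76% of all probe sets. It was not called without AES arrays 2 and 4 (0.54, adjusted p = 0.271, limma), where 2.29% of all probe sets were. In every group 5 or 6 of these markers were below 4.35. The part of these markers in the collagen results was not tested.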

How the data were processed

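RNA of 40 equine chondrocyte pellet samples was measured on Affymetrix Equine Gene 1.0 ST arrays. The tools named in the submitters' processing notes are RMA, Affymetrix Expression Console and limma, without versions. The deposited values are log2 expression levels made by the authors, 1 per probe set and array. Normalisation across arrays would reduce a shift of most genes in 1 direction. Of 30559 probe sets, 16789 carry 1 symbol, 343 several and 13427 are not listed in the platform annotation. No sequences or positions were used here. Depth does not apply to arrays, and the 4 arrays per group limit the precision: the median half-width of the 95% intervals of the 21 genes above the lowest array median was 0.40.

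Groups and replicate numbers came from the sample titles. A model of 10 group means was fitted to all 40 arrays with limma 3.58.1 in R 4.3.3, with moderation by intensity trend (30 residual and 4.62 prior degrees of freedom) and no replicate term. Tests were two-sided, with Benjamini-Hochberg adjustment over all probe sets, a threshold of 0.05, and 23 comparisons. The fit was tested on simulated data. The members, gene lists and marker lists were chosen with earlier results of these data known. Values on every array were to be shown for 7 genes (COL1A1, COL1A2, COL3A1, COL5A1, COL6A1, COL12A1 and COL14A1) and for each gene called with IL-1β or against IL-1β. Genes called in the remaining comparisons were added after their calls were seen, and for COL5A1, COL6A1 and COL12A1 the spread is summarised.

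The alternatives were a replicate block, the upper 60% of probe sets, median-centred arrays, array weights, no intensity trend, a spread estimated from the 2 groups compared alone, omission of AES arrays 2 and 4 at 48 h, and omission of each array in turn. For the genes outside the 35, the omission of AES arrays 2 and 4 was added after the data were seen.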

Additional observations from a re-analysis of the deposited data

Results flagged for a closer look

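For the 15 genes with values shown, each group of 4 arrays was searched for a single array far from the other 3 (a gap, relative to the group's range, above Dixon's 95% critical value). Chance flags about 1 in 20 groups. Of 150 sets, 22 were found, 10 of them on arrays numbered 1, 10 on arrays numbered 3, 2 on arrays numbered 4 and 0 on arrays numbered 2.

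Among the fibril-forming genes, COL1A1 read 9.56 on ACS array 1 at 48 h, below the others. COL1A2 was low on array 1 of control at 2 h (11.82), of AES24h at 48 h (11.35) and of ACS at 48 h (11.14). COL5A1 stood at 9.03 on control array 3 and 8.92 on IL-1β array 3 at 48 h, both the highest of their group, and at 7.94 on AES24h array 1 at 48 h, the lowest.

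In the type IV pair, array 3 was the low one at 2 h: COL4A1 read 6.90 with AES and 6.82 with AES24h, and COL4A2 7.08 with IL-1β. In type VI, COL6A1 read 10.42 with AES and 10.66 with AES24h on array 3 at 48 h. COL6A2 read 9.78 on AES array 3 at 2 h, 9.998 on IL-1β array 1 at 48 h and 9.20 on AES array 3 at 48 h. COL6A3 reached 12.12 on AES24h array 1 at 2 h.

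COL8A1 read 8.35 on IL-1β array 1 and 7.52 on AES array 1 at 2 h, the lowest of their groups, and 9.13 on AES array 3 at 48 h, the highest. COL8A2 reached 6.39 on control array 4 at 2 h. COL12A1 was 10.62 on ACS array 1 at 2 h, and COL16A1 7.28 on IL-1β array 4 at 48 h.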

How the results depend on the processing

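Of the 805 gene tests 166 were recomputed under the alternatives, and none that was called in the main setting or in the alternative turned direction. Of 18 calls of collagen genes, 9 held under all 7 settings other than leaving out 1 array, and 4 held without any 1 array: COL4A1 with each serum and COL4A2 with AES, all against control at 48 h. Of 144 recomputed counts 122 stayed within 1.5 times. Most of the 144 belong to comparisons with a main count of 0, and a count that stays at 0 says little about stability. The count for IL-1β at 48 h fell from 1 to 0 with median-centred arrays and with the spread only from the groups compared. Against IL-1β at 48 h the AES count was 2 in the upper 60% of probe sets and 0 both without AES arrays 2 and 4 and with the spread only from the groups compared, while the AES24h and ACS counts were each 1 in the upper 60% and 1 with array weights, which is COL4A1. Against control at 48 h the AES count was 2 without AES arrays 2 and 4, and the ACS count 5 with array weights. Between times the AES count was 0 with array weights, without AES arrays 2 and 4 and with the spread only from the groups compared, and the AES24h count was 1 with array weights. The cause was not tested.

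With the replicate number as a block the counts against IL-1β at 48 h were 3 (AES), 2 (AES24h) and 2 (ACS), with COL4A1 and COL4A2 in each, those against control 8 (AES), 6 (AES24h) and 9 (ACS), and those between times 2 (AES24h) and 2 (ACS). Of all probe sets the block called 1.51%, 0.704% and 0.805% against IL-1β, 11.6%, 5.1% and 5.55% against control, and 2.65% and 2.22% between times, so that the calls rose over all probe sets too. COL1A2 was among the genes that the block called against control, lower with AES and with ACS (adjusted p = 0.0171 and 0.0185, limma). The labels give no pairing. Same-numbered arrays correlated in their deviations at -0.13 to 0.52, median 0.11, with 98 of 180 pairs over 0.1. For 36 of 40 arrays, the mean correlation with arrays of other groups was highest for those of the same number. This is a hint from the data and not the design. For AES24h against control at 48 h, where all 4 pairs were over 0.1, the block left the count at 6.

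Leaving out 1 array gave counts of 0 to 1 for IL-1β at 2 h and at 48 h, 0 to 2 for AES against IL-1β at 48 h, 2 to 6, 2 to 4 and 2 to 3 for AES, AES24h and ACS against control at 48 h, and 0 to 1 for AES and for AES24h between times. It gave 0 in the other comparisons. The share of all probe sets then ran from 4.1% to 11.5%, 2.55% to 3.47% and 2.8% to 3.88% against control, and from 0.0818% to 1.07%, 0.0556% to 0.196% and 0.0524% to 0.337% against IL-1β, for AES, AES24h and ACS at 48 h. For AES both lowest shares came without AES array 4 and both highest without AES array 3. With 4 arrays a group, the size needed to pass the adjusted threshold varied with the spread of the gene. It was often well above 0.40, the median half-width of the unadjusted intervals. The difference of 0.87 in COL4A2 with AES against IL-1β and that of -0.82 in COL8A1 with IL-1β, both at 48 h, did not pass. That of 0.40 in COL3A1 with IL-1β at 48 h did.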

Other observations

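COL7A1, the anchoring fibril collagen of type VII, shares its probe set with MIR711 and was therefore not among the 35 genes. The probe set had group means from 5.46 in control to 6.06 with IL-1β, 6.68 with AES, 6.58 with AES24h and 6.38 with ACS at 48 h. Against control it was higher by 1.22, 1.12 and 0.92 with AES, AES24h and ACS (adjusted p = 0.000301, 0.00125 and 0.00899, limma), and against IL-1β by 0.62, 0.52 and 0.32, none past the test (adjusted p = 0.256, 0.610 and 0.822). Without AES arrays 2 and 4 the AES difference from control was 1.38 (adjusted p = 0.00216). The signal cannot be divided between the 2 genes of the probe set.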
